A study of Mus musculus with 12 samples.

Results

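Muscle of mice labelled as deleted for H2afz and H2afv, the pair of genes that encode the histone variant H2A.Z, was described here by how its RNA changed after 48 h without a nerve. The comparison rests on 6 of the 12 libraries of the series, namely 3 of denervated and 3 of innervated tibialis anterior (a shin muscle) from double-knockout mice. Denervated double-knockout (dKO) muscle carried H2A-Z.1-/- together with H2A-Z.2-/- and was HSA Cre+, and it lay downstream of a left sciatic nerve that had been cut at 2 points 48 h earlier. Innervated dKO muscle was the same muscle of the other, unoperated leg of mice with this genotype. The 6 remaining libraries, denervated and innervated muscle of WT mice (with H2A-Z.1flox/flox as well as H2A-Z.2 flox/flox alleles and labelled HSA Cre WT), were used for the size of the spread, the check of the targeted genes and the test of where the dKO response differed. All mice were C57BL/6 and 7 weeks old. The control legs had no operation, so loss of the nerve, the surgery and the side of the body cannot be told apart. HSA Cre is driven by the human skeletal actin promoter and is active in muscle fibres, while the nerve, vessel, connective tissue and immune cells of the muscle keep both H2A.Z genes. In whole muscle, fewer cells of a type and less RNA per cell cannot be told apart.

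H2A.Z replaces the canonical histone H2A in nucleosomes near the start sites of many active genes. In an innervated fibre, the acetylcholine receptor is made mainly by the nuclei under the nerve ending, and electrical activity keeps the receptor genes low elsewhere in the fibre. When the nerve is lost, this brake is released along the whole fibre: the deacetylase HDAC4 and the myogenic factor myogenin are induced, genes of the fetal receptor return, and ubiquitin ligases such as atrogin-1 and MuRF1 accompany the start of atrophy.

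The 2 targeted genes were examined first, as a check of the labels. H2afv (H2A-Z.2, ENSMUSG00000041126) had 5.40, 4.81 and 4.78 CPM (counts scaled to a common library size) in denervated dKO muscle, against 21.6, 21.6 and 18.9 CPM in denervated WT muscle. In innervated legs it had 5.06, 5.89 and 6.06 CPM in dKO, against 24.0, 23.9 and 18.5 CPM in WT. The genotypes did not overlap in either leg, and dKO held 24.1% of the WT level in denervated and 25.6% in innervated muscle (edgeR adjusted p = 5.23e-06 and 8.89e-06). H2afz (H2A-Z.1, ENSMUSG00000037894) had 7.84, 5.83 and 6.01 CPM in denervated dKO muscle, against 11.2, 7.54 and 10.4 CPM in denervated WT muscle, and 8.50, 6.74 and 9.93 CPM in innervated dKO muscle, against 13.9, 10.9 and 15.6 CPM in innervated WT muscle. This gene thus stood at 67.6% and 62.2% of WT in denervated and innervated muscle and did not pass the test (edgeR adjusted p = 0.287 and 0.175). The denervated libraries of the genotypes overlapped, and the innervated ones did not. The unadjusted 95% interval of log2 dKO over WT was −0.97 to −0.16 in denervated and −1.09 to −0.28 in innervated muscle. Counts of H2afz may include reads of a near-identical copy of its transcript elsewhere in the genome. The labels do not say which exons were deleted, so a count over the whole gene may not check the deletion. The libraries are called dKO by their label. Within dKO, neither gene passed the test after denervation: the log2 ratio was −0.18 ± 0.12 for H2afv and −0.35 ± 0.19 for H2afz (edgeR adjusted p = 0.25 and 0.154), and with a replicate block H2afz had an adjusted p of 0.0350.

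The dKO libraries held 61566971 to 72527180 counts and all 12 libraries 55668606 to 87753152, so that 3 counts correspond to 0.0414 to 0.0487 CPM in dKO. The reads of the giant sarcomere protein titin (Ttn) alone made up 12.3% to 12.9% of counts in denervated and 15.5% to 16.7% in innervated dKO muscle. Libraries with the same replicate number in the 2 legs deviated together, with r of 0.197 to 0.508 over 12706 genes, against −0.389 to 0.088 for different numbers. The deviations were taken from group means, so the values for different numbers depend on those for equal numbers and are no independent contrast. A fit with the replicate number as a block is given beside the values it moves.

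Of 17201 genes with enough counts, 7233 (42.0%) passed the threshold of 0.05 after denervation in dKO muscle (edgeR's quasi-likelihood test, Benjamini-Hochberg adjusted p). Of all tested genes, 3761 rose (21.9%) and 3472 fell (20.2%), and each list below is read against these shares. The lists were chosen with earlier results of these data known, so the share of a list is a description and not a test. The replicate block called 8186. By 2-fold or more, 966 rose and 999 fell; by 8-fold or more, 129 rose and 70 fell. Changes smaller than 1.5-fold made up 1769 of the rises and 1462 of the decreases. The groups of 3 did not overlap for 9045 genes (52.6%). The median log2 ratio was −0.03 over all tested genes and 0.00 over the 12702 that averaged at least 1 CPM, where its median standard error was 0.117. The genes that rose held 22.2% to 23.3% of all CPM in denervated dKO muscle, against 11.7% to 12.4% in innervated dKO muscle. Those that fell held 34.5% to 35.5% in denervated and 47.0% to 48.3% in innervated muscle.

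As a check of the tissue, the 15 muscle fibre markers were summed and held 212120.0 to 233982 CPM in denervated and 303253 to 305714 CPM in innervated dKO muscle. Of these 15, 8 fell and none rose by the test, and without denervated dKO replicate 3 or innervated dKO replicate 2 the number that fell was 5. In CPM, the largest rises were those of the chaperone Hspb8 (2275 CPM more in denervated than in innervated muscle, as the difference of means), the autophagy receptor Sqstm1 (1215 CPM) and Mknk2, a kinase of the cap-binding factor eIF4E (1133 CPM). The largest decreases in CPM belonged to contractile and energy genes: Ttn changed by −53016 CPM, the calcium pump Atp2a1 by −3623 CPM, the fast myosin Myh1 by −3379 CPM and the muscle enolase Eno3 by −3209 CPM. By ratio, among called genes that averaged at least 1 CPM and had no overlap, the extremes included Krt18, S100a8 and Gdf5 at the top and the potassium channel Kcnc1 at the bottom, each described below. Ces2c, a carboxylesterase, rose (log2 6.34 ± 0.40) and Tecta, a protein of the inner ear's tectorial membrane, fell (log2 −4.05 ± 0.37), at 0.289, 0.0987 and 0.104 CPM in denervated and 2.97, 2.25 and 3.01 CPM in innervated dKO muscle (edgeR adjusted p = 9.98e-08 and 2.25e-06).

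Libraries were made strand-specific per the labels, but the strand setting of the counting is not given, so genes with an exon that overlaps another gene's exon on the other strand are uncertain. Among genes described below these are Gdf5, Fosl1, Krt8, Rrad, Sqstm1, Fbxo32, Ttn, Atp2a1, Myh1, Myh2, Myh14, Mybph, Xirp2, Casq1, Tecta, Runx1, Ncam1, Gadd45a, Hdac4, Arntl, Bhlhe41, Cry2, Chrnb2, Ache, Rapsn and Irs1. The same holds for Asb5, Psma5, Gabarapl1, Ctsl, mt-Nd5, Mdh1, Pfkfb1, Slc2a1, Gys1, Ddit3, Hspb6, Cdkn1a, Junb, Gnl3, Prx and Cxcl10.

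Subunits of the acetylcholine receptor moved in opposite directions. Of 11 tested subunit genes, 6 rose and 2 fell, and the median log2 ratio was 1.50, beside −0.03 for all genes. The 3 subunits that with the beta subunit form the fetal muscle receptor (Chrna1, Chrnd, Chrng) all rose, and the epsilon subunit Chrne, which takes the place of gamma in the adult receptor, fell. The neuronal-type subunits Chrna9 and Chrna7 rose as well, but the call on Chrna7 was lost without denervated or innervated dKO replicate 3 (edgeR adjusted p = 0.0753 and 0.0617).

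The promoters of 3 genes that rose and of Chrne, which fell, are shown because the receptor genes moved in opposite directions. Each is the 300 bases from 250 before to 50 after the RefSeq gene start (GRCm38.p6), written 5′ to 3′ on the gene's strand, at chr2:73580289-73580588 (minus strand), chr1:87205561-87205860 (plus), chr4:58285712-58286011 (plus) and chr11:70619145-70619444 (minus). Capitals mark CAGCTG, an E-box of the kind bound by MyoD and myogenin, which reads the same on both strands. Musk codes for the muscle-specific kinase that receives the nerve's agrin signal.
Chrna1: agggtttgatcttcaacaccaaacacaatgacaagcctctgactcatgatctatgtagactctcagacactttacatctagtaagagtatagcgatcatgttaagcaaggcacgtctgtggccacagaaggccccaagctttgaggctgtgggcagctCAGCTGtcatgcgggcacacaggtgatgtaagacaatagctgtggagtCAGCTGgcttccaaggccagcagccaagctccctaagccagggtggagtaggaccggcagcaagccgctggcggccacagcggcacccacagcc
Chrng: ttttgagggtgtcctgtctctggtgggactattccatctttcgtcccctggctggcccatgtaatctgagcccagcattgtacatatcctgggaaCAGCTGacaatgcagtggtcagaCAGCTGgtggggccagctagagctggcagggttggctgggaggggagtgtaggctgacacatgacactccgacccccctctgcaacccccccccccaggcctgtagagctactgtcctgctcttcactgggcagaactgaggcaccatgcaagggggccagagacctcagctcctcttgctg
Musk: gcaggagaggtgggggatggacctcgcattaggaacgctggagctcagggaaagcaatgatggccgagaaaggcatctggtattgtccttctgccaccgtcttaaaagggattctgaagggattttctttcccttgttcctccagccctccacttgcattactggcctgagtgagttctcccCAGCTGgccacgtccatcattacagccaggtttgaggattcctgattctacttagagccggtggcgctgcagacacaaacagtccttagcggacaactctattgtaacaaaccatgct
Chrne: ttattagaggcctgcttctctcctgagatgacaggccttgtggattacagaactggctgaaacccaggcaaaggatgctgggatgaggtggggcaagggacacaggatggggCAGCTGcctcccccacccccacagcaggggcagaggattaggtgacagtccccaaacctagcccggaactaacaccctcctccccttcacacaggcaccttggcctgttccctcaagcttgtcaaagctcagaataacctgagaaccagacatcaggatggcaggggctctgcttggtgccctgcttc
The motif starts at −92 and −44 from the start in Chrna1, at −155 and −132 in Chrng, at −68 in Musk and at −138 in Chrne. It lay in 5355 of 32851 promoter windows of this length (16.3%). Counted per gene, 2325 of the 12227 tested genes matched to a window held the motif in any of their windows (19.0%). Among matched genes it lay in 476 of 2894 that rose (16.4%), 543 of 2553 that fell (21.3%) and 1306 of 6780 that did not pass (19.3%). Of the 9 tested receptor genes with a window, 5 held it. The windows shown all hold the motif, so they do not stand for all genes that rose. The windows of Chrnb1, Chrna7 and the myogenin gene Myog, which rose, did not hold it, while that of Chrna9, which rose, did. These matches describe the letters and not binding.

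Chrna1, the alpha subunit that binds acetylcholine, had 123, 137 and 159.8 CPM in denervated dKO muscle, against 11.6, 12.6 and 13.8 CPM in innervated dKO muscle. Every denervated library stood far above every innervated one, and the rise was 11.1-fold (log2 3.47 ± 0.18, edgeR adjusted p = 2.08e-08). The delta subunit Chrnd had 33.3, 37.1 and 39.3 CPM in denervated and 1.46, 1.98 and 1.69 CPM in innervated dKO muscle, again with no overlap, a rise of 21.4-fold (edgeR adjusted p = 1.72e-10). The beta subunit Chrnb1, shared by both receptor forms, rose 2.83-fold (edgeR adjusted p = 4.47e-07). Chrng, the fetal gamma subunit, had 1.76, 1.58 and 5.75 CPM in denervated and 0.21, 0.134 and 0.929 CPM in innervated dKO muscle. The third replicate was the highest in both legs, the groups did not overlap, and the log2 ratio of 2.88 ± 0.97 had the largest standard error of the 11 receptor genes (edgeR adjusted p = 0.0297). The call on Chrng was lost in DESeq2 (0.0682), and without innervated dKO replicate 1 (0.0933) or 2 (0.102) or denervated dKO replicate 3 (0.143), as adjusted p, and the replicate block gave 0.00156.

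Chrne, the adult epsilon subunit, had 5.96, 5.35 and 4.98 CPM in denervated dKO muscle, against 9.15, 9.11 and 8.40 CPM in innervated dKO muscle. All denervated libraries were lower, with a log2 ratio of −0.71 ± 0.11 (edgeR adjusted p = 0.000161). On the scale per kb of gene length, where genes can be compared, Chrng had a normalized signal of 71.8, 64.9 and 231 per kb in denervated and 8.45, 5.42 and 37.5 per kb in innervated dKO muscle, and Chrne 407, 369 and 337 per kb in denervated and 616, 618 and 568 per kb in innervated muscle. The adult subunit thus remained above the fetal one in each of the 6 libraries. Chrna9, an alpha subunit best known from the inner ear, had 48.1, 30.1 and 41.0 CPM in denervated and 0.345, 0.253 and 0.792 CPM in innervated dKO muscle, a log2 ratio of 6.45 ± 0.45 (edgeR adjusted p = 2.33e-07). Chrnb2, a subunit of neuronal receptors, was below 1 CPM in all 6 libraries and was called lower (log2 −1.20, edgeR adjusted p = 0.0103), a call lost without denervated dKO replicate 2 (0.0514).

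**Figure D1:**
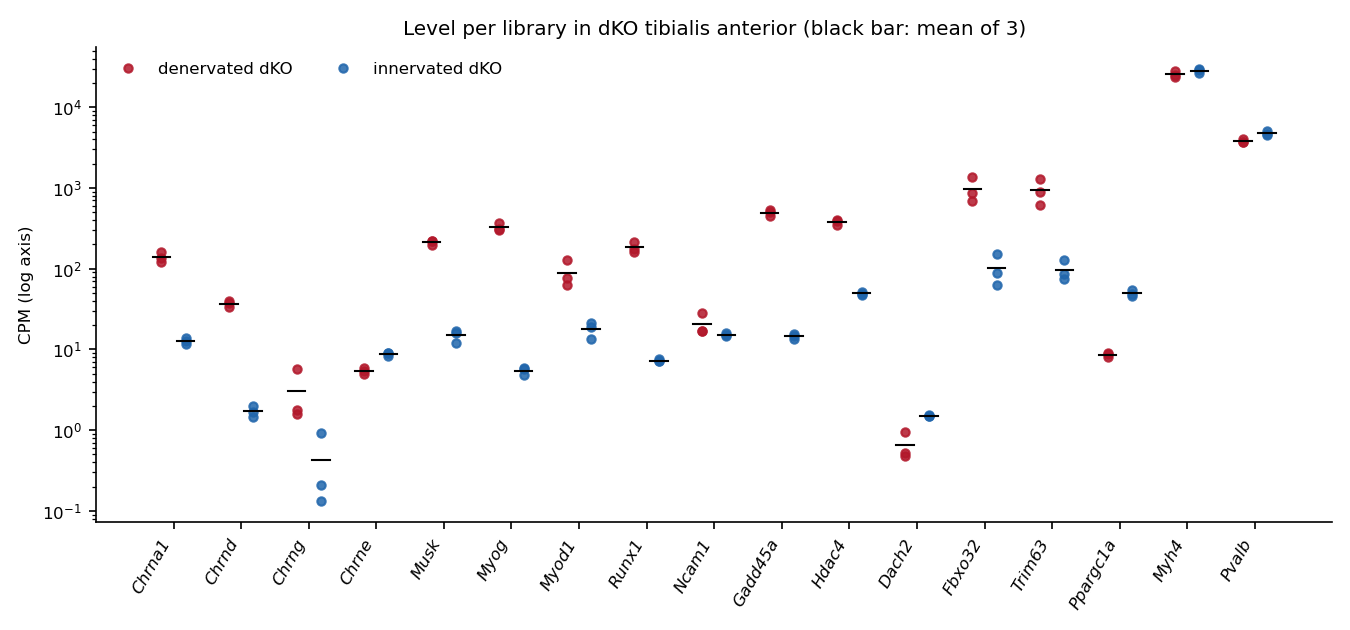
Each position on the horizontal axis is 1 gene, with the 3 denervated (red, left) and 3 innervated (blue, right) dKO libraries, in CPM on a log axis, with a black bar at the mean of 3. Chrna1, Chrnd, Myog, Runx1 and Gadd45a lie far higher in denervated muscle with no overlap, Ppargc1a, Dach2 and Chrne lie lower, and the points of Myh4 overlap.

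The organisers of the synapse had members in both directions. Of 24 tested, 4 rose, 7 fell and 13 did not pass, with a median log2 ratio of 0.04. Musk had 221, 221 and 194 CPM in denervated dKO muscle, against 15.9, 17.0 and 11.9 CPM in innervated dKO muscle, and rose 14.2-fold with no overlap (edgeR adjusted p = 1.26e-09). Ache, the acetylcholinesterase that ends each signal, had 6.33, 6.54 and 5.49 CPM in denervated and 20.9, 24.3 and 26.8 CPM in innervated muscle and fell (log2 −1.97 ± 0.16, edgeR adjusted p = 6.76e-07). Rapsn, the scaffold that anchors the receptor, was called at a log2 ratio of 0.34 with overlapping groups (edgeR adjusted p = 0.0441), and its adjusted p ranged from 0.00999 to 0.164 over the alternatives, the call being lost without any 1 of denervated dKO replicates 1 and 2 and innervated dKO replicates 1 and 3. Dok7, the adaptor of MuSK, missed the threshold at a log2 ratio of 1.02 (edgeR adjusted p = 0.0523) and passed it with the replicate block (0.000384), as did others: the block raised the number of organisers that rose to 7. Ncam1, the adhesion molecule of developing and denervated fibres, had 16.7, 17.0 and 28.0 CPM in denervated and 15.8, 14.8 and 14.9 CPM in innervated dKO muscle. The groups did not overlap, but only denervated replicate 3 stood well above the rest, and the gene did not pass the test (log2 0.44 ± 0.22, edgeR adjusted p = 0.13; 0.0370 with the block).

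The regulators that link nerve activity to transcription held some of the largest changes in dKO muscle. Of 32 tested myogenic and class II deacetylase regulators, 15 rose and 9 fell, with a median log2 ratio of 0.10, and the number that fell was 5 without denervated dKO replicate 3. Myog, the gene of myogenin, had 307, 369 and 303 CPM in denervated dKO muscle, against 4.81, 5.82 and 5.64 CPM in innervated dKO muscle. The groups were far apart, with a 60.2-fold rise (log2 5.91 ± 0.20, edgeR adjusted p = 4.95e-10). Myod1 had 62.2, 128 and 76.6 CPM in denervated and 19.1, 21.4 and 13.6 CPM in innervated muscle and rose 4.93-fold (edgeR adjusted p = 0.000105), and the muscle regulatory factor Myf6 rose 3.59-fold (edgeR adjusted p = 3.3e-06). Runx1, a transcription factor long used as a marker of denervated muscle, had 163, 173 and 214 CPM in denervated and 7.13, 7.53 and 7.14 CPM in innervated dKO muscle, a 25.2-fold rise with no overlap (edgeR adjusted p = 2.37e-10).

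Among the class II histone deacetylases the direction depended on the member. Hdac4 had 395, 405 and 343 CPM in denervated dKO muscle, against 51.9, 47.0 and 49.1 CPM in innervated dKO muscle, and rose 7.73-fold (edgeR adjusted p = 4.95e-10), whereas Hdac5 and Hdac9 fell (log2 −0.94 and −1.67). Dach2, a corepressor that holds Myog down in innervated fibres, had 0.95, 0.48 and 0.519 CPM in denervated and 1.49, 1.53 and 1.48 CPM in innervated dKO muscle. All 3 denervated libraries were lower, at a log2 ratio of −1.21 ± 0.23 (edgeR adjusted p = 0.000948). Gadd45a, a stress protein whose induction in denervated muscle depends on HDAC4, had 448, 539.7 and 497 CPM in denervated and 13.4, 15.5 and 14.9 CPM in innervated muscle, a 33.9-fold rise (edgeR adjusted p = 1.19e-09).

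Growth factor pathways had members that rose and members that fell. Of 38 tested genes of BMP, myostatin and activin signalling, 14 rose and 11 fell, with a median of 0.14. Gdf5, a BMP ligand known to limit muscle loss after denervation in mice, had 56.8, 65.3 and 45.3 CPM in denervated dKO muscle, against 0.24, 0.432 and 0.155 CPM in innervated dKO muscle. The 3 innervated libraries were all below 1 CPM, and the fitted log2 ratio was 7.63 ± 0.29 (edgeR adjusted p = 1.34e-09). Id2, a target of BMP signalling, rose (log2 3.29), as did the myostatin mediator Smad3 (log2 1.40), while the activin receptor Acvr2b fell (log2 −1.88). In the insulin, IGF and AKT list, 12 of 30 rose and 4 fell, among them Igfbp5, which binds IGF (log2 1.95), and the insulin receptor substrate Irs1 (log2 −1.83), which fell. The neurotrophic and fibroblast growth factor list had 8 rises and 9 decreases in 31 genes, with a rise of the motor neuron survival factor Gdnf (log2 3.58) and a decrease of the neurotrophin Ntf5 (log2 −4.71).

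Genes of the excitable membrane fell more often than they rose. Of 49 tested sodium, chloride and potassium channel and pump genes, 8 rose and 21 fell, with a median log2 ratio of −0.28. Scn4a, the sodium channel of adult fibres, had a log2 ratio of 0.08 and did not pass (edgeR adjusted p = 0.538). The small-conductance potassium channel Kcnn3 rose 9.45-fold (edgeR adjusted p = 2.2e-09).

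The voltage-gated potassium channel Kcnc1 had 7.84, 6.74 and 4.23 CPM in denervated dKO muscle, against 194, 175 and 154 CPM in innervated dKO muscle, a decrease with no overlap (log2 −4.80 ± 0.22, edgeR adjusted p = 8.7e-09). Another potassium channel, Kcna7, the sodium pump subunit Atp1b1 and its relative Atp1b4 fell as well, with log2 ratios of −3.19, −2.64 and −4.13. Clcn1, the chloride channel that steadies the resting fibre, fell by a log2 ratio of −1.09.

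Of 37 tested genes of excitation-contraction coupling and calcium handling, 5 rose and 22 fell, with a median of −0.32; without denervated dKO replicate 3 the counts were 2 and 18. The calcium store protein Casq1 and its slow-fibre relative Casq2 fell (log2 −1.11 and −1.96), and so did the store protein Hrc (log2 −1.44). The calcium pump of fast fibres, Atp2a1, had 10145, 9778 and 9224 CPM in denervated and 12762, 12923 and 14331 CPM in innervated dKO muscle, all denervated libraries being lower (log2 −0.46 ± 0.12, edgeR adjusted p = 0.00744). Its inhibitor sarcolipin (Sln) was called higher at a log2 ratio of 1.28 with overlapping groups (edgeR adjusted p = 0.0363, 0.000351 to 0.304 over the alternatives), and the call was lost in limma-voom and without denervated dKO replicate 3 or innervated dKO replicate 2 or 3. Cacng1, the gamma subunit of the muscle calcium channel, rose (log2 1.04). Parvalbumin (Pvalb), the calcium buffer of fast fibres, had 4016, 3743 and 3668 CPM in denervated and 4542, 4707 and 5085 CPM in innervated muscle; the groups did not overlap, but the log2 ratio of −0.33 ± 0.12 lay at the threshold (edgeR adjusted p = 0.0428) and the call was lost whichever single dKO library was left out, with 0.0523 to 0.134, or when the filter on low counts was dropped (0.0621).

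Contractile genes mostly fell or did not pass, and the most abundant heavy chain, Myh4, did not pass. Of 14 tested myosin heavy chain genes, 2 rose and 7 fell. Myh4, the heavy chain of the fastest fibres, had 28078, 25018 and 23852 CPM in denervated dKO muscle, against 30112, 26346 and 28659.8 CPM in innervated dKO muscle. These ranges overlapped, with a log2 ratio of −0.15 ± 0.18 (edgeR adjusted p = 0.553). Myh2, the heavy chain of fast oxidative fibres, had 443, 888 and 511 CPM in denervated and 2534, 4129.8 and 2667 CPM in innervated muscle and fell (log2 −2.34 ± 0.37, edgeR adjusted p = 0.00021). Myh1, the intermediate fast chain, fell less (log2 −0.45 ± 0.15, edgeR adjusted p = 0.0311), with an adjusted p of 0.0604 to 0.118 when any single dKO library other than denervated replicate 1 was left out. Myh13 fell (log2 −1.81), as did the non-muscle chain Myh10 (log2 −1.89), and the non-muscle chain Myh14 rose (log2 1.12).

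Of 55 other sarcomere and Z-disc genes, 28 fell and 2 rose, with a median log2 ratio of −0.42. Titin (Ttn) had 122378, 119227 and 116437 CPM in denervated and 178366, 167441 and 171281 CPM in innervated dKO muscle (log2 −0.53 ± 0.16, edgeR adjusted p = 0.0144). Lmod3, which nucleates thin filaments, had 12.9, 13.7 and 16.9 CPM in denervated and 128, 123 and 139.8 CPM in innervated muscle (log2 −3.17 ± 0.12, edgeR adjusted p = 1.37e-09). Kbtbd13, a nemaline myopathy gene of lower level, fell further (log2 −4.31). Mybph, the myosin-binding protein H, had 112, 143 and 213 CPM in denervated and 31.4, 32.3 and 57.7 CPM in innervated muscle and rose 3.86-fold (edgeR adjusted p = 0.00296); part of its transcript sequence is shared with the Adora1 locus.

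Proteins that sense load at the Z-disc split by member: of 20 tested, 6 rose and 9 fell. Ankrd1, an ankyrin-repeat protein induced by stress in muscle, had 771, 667 and 519 CPM in denervated dKO muscle, against 53.2, 19.5 and 15.6 CPM in innervated dKO muscle (log2 4.47 ± 0.49, edgeR adjusted p = 9.78e-06). The LIM protein Fhl2 rose (log2 3.42), while its relatives Fhl1 and Csrp3 and the Xin protein Xirp2 fell (log2 −1.61, −1.36 and −0.95). The number that rose was 3 without denervated dKO replicate 1 or 2 or innervated dKO replicate 1 or 2.

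Of 29 genes of intermediate filaments and the dystrophin complex, 5 rose and 11 fell. The largest rise of all named genes was that of the keratin Krt18, an intermediate filament protein of simple epithelia, with 92.8, 83.2 and 111 CPM in denervated dKO muscle, against 0.18, 0.342 and 0.396 CPM in innervated dKO muscle (log2 8.30 ± 0.40, edgeR adjusted p = 1.18e-08). Its partner Krt8 had 15.7, 12.1 and 24.6 CPM in denervated and 0.165, 0.0446 and 0.155 CPM in innervated muscle (log2 7.17 ± 0.57, edgeR adjusted p = 6.76e-07). Both keratins were below 1 CPM in every innervated library and above 10 CPM in every denervated one. The sarcoglycan Sgcd, of the dystrophin complex, fell (log2 −2.10).

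In protein breakdown, the proteasome genes rose throughout and other groups had members that rose, fell or did not pass. All 31 tested proteasome subunit genes rose, against 21.9% of all genes, with a median log2 ratio of 0.86. The smallest rise was that of Psmb7 (log2 0.33), whose call was lost without innervated dKO replicate 3 (edgeR adjusted p = 0.0546). The alpha ring subunit Psma5 had 66.2, 67.6 and 64.8 CPM in denervated dKO muscle, against 25.0, 25.9 and 23.5 CPM in innervated dKO muscle, a rise of 2.67-fold (edgeR adjusted p = 5.93e-07); a near-identical copy of its transcript exists. Of 55 autophagy and lysosome genes, 28 rose and 3 fell. The autophagy receptor Sqstm1 had 1559, 1733 and 1591 CPM in denervated and 462, 407 and 370.3 CPM in innervated muscle, a 3.94-fold rise with no overlap (edgeR adjusted p = 8.63e-07), and the autophagosome protein Gabarapl1, the reticulophagy receptor Fam134b and the lysosomal protease Ctsl rose by log2 ratios of 2.43, 2.25 and 2.08.

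Among 39 tested ubiquitin ligases of muscle, 16 rose and 9 fell, with a median of 0.15. Fbxo32, which codes for atrogin-1, had 1378, 865 and 687 CPM in denervated dKO muscle, against 154, 88.7 and 62.5 CPM in innervated dKO muscle. In both legs replicate 1 was highest and replicate 3 lowest, and the rise was 9.60-fold (log2 3.26 ± 0.33, edgeR adjusted p = 4.71e-06). Trim63, which codes for MuRF1, had 1278, 903 and 617 CPM in denervated and 129, 86.5 and 74.9 CPM in innervated muscle, with the same order of replicates and a rise of 9.64-fold (log2 3.27 ± 0.25, edgeR adjusted p = 5.15e-07). The Asb family, adaptors of another kind of ubiquitin ligase, went mainly down: of 16 tested, 9 fell and 3 rose. Asb18, Asb15 and Asb12 fell by log2 ratios of −4.20, −2.45 and −2.29, and Asb5 and Asb2 rose (log2 1.58 and 0.67).

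**Figure D2:**
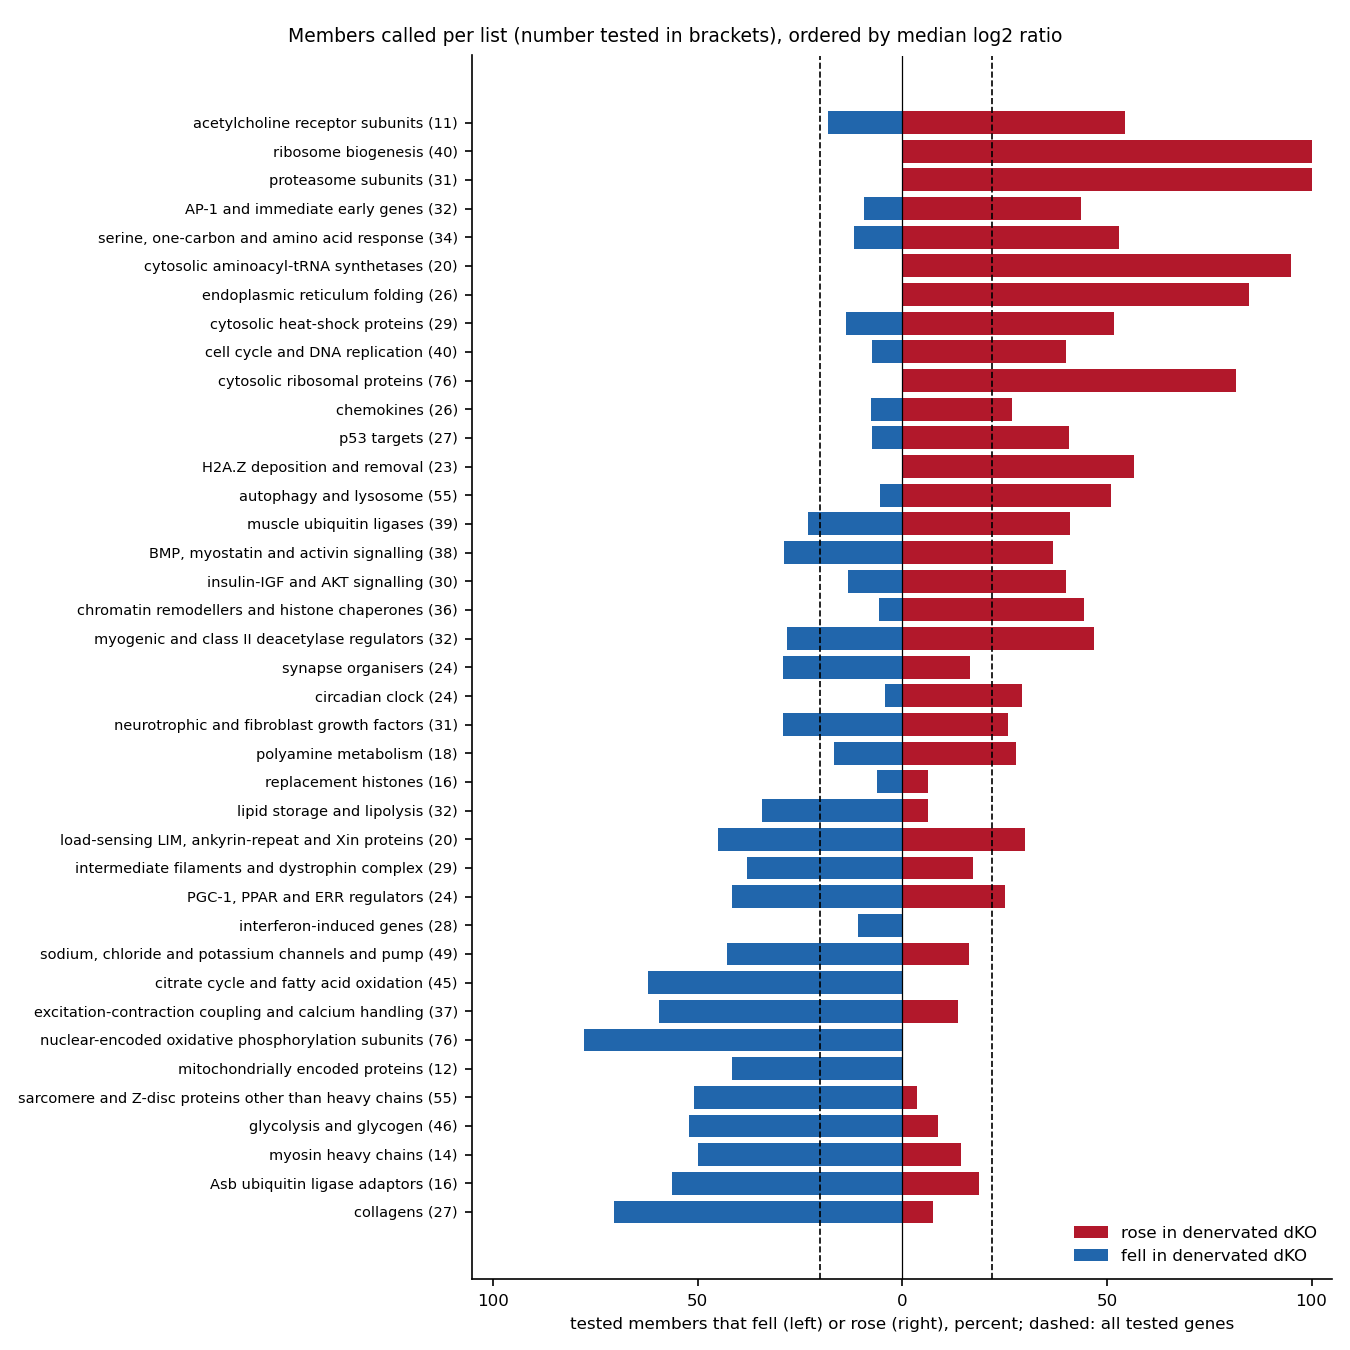
For each of 39 pathway lists the bars give the percent of tested members that fell (blue, left) and rose (red, right) in denervated against innervated dKO muscle, with dashed lines at the shares of all genes, 20.2% and 21.9%. Proteasome subunits and ribosome biogenesis rose throughout, and no gene of the oxidative phosphorylation list rose.

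Mitochondrial genes fell broadly. Of 76 nuclear-encoded oxidative phosphorylation subunits, 59 fell and none rose by the test, against 20.2% of all genes that fell, with a median log2 ratio of −0.39. The decreases were small per gene: the complex II subunit Sdhd had a log2 ratio of −1.03, the complex I subunit Ndufb10 −0.91 and cytochrome c (Cycs) −0.77. Of 12 mitochondrially encoded genes, 5 fell, with mt-Nd5 at −0.73 (edgeR adjusted p = 0.0115); leaving out any single dKO library reduced this count to 1 to 3, and the block raised it to 8. Of 45 genes of the citrate cycle and fatty acid oxidation, 28 fell and none rose. Among them Idh3a and Mdh1, of the citrate cycle, fell by log2 ratios of −1.15 and −1.11, the pyruvate dehydrogenase phosphatase Pdp1 by −1.79, and Cpt1b, which brings fatty acids into mitochondria and has a near-identical copy of part of its transcript, by −1.15.

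Ppargc1a, which codes for PGC-1alpha, a coactivator that drives mitochondrial biogenesis, had 8.07, 8.80 and 8.92 CPM in denervated dKO muscle, against 48.2, 45.5 and 55.1 CPM in innervated dKO muscle. All denervated libraries were far lower (log2 −2.53 ± 0.12, edgeR adjusted p = 8.9e-09). Its partners Ppara, Esrrg and Esrra fell too (log2 −2.17, −2.04 and −1.66). Of the 24 regulators of this list, 10 fell and 6 rose.

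Genes of sugar use and fat storage also fell more often than they rose. Of 46 glycolysis and glycogen genes, 24 fell and 4 rose, with a median log2 ratio of −0.51. Enolase 3 (Eno3) had 2434, 2111 and 1756 CPM in denervated dKO muscle, against 5186, 5371 and 5371 CPM in innervated dKO muscle, a decrease with no overlap (log2 −1.34 ± 0.14, edgeR adjusted p = 6.33e-06). Triose phosphate isomerase (Tpi1), glycogen synthase (Gys1) and Pfkfb1 fell (log2 −1.55, −1.73 and −2.74). The insulin-responsive glucose transporter Slc2a4 fell (log2 −1.33), while Slc2a1, the basal transporter, rose (log2 2.13).

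Of 32 genes of lipid storage and lipolysis, 2 rose and 11 fell. The phosphatidate phosphatase Lpin2 had 126, 107 and 154 CPM in denervated and 8.25, 7.01 and 7.62 CPM in innervated dKO muscle and rose 16.9-fold (edgeR adjusted p = 3.36e-09). G0s2, an inhibitor of lipolysis, had 2.41, 5.43 and 2.30 CPM in denervated and 35.6, 85.8 and 75.7 CPM in innervated muscle and fell (log2 −4.28 ± 0.55, edgeR adjusted p = 3.88e-05). Odc1, the first enzyme of polyamine synthesis, had 711, 695 and 523 CPM in denervated and 74.2, 83.2 and 65.0 CPM in innervated muscle. It rose 8.68-fold (edgeR adjusted p = 1.8e-07), while Smox, which oxidises spermine, fell (log2 −2.24). The polyamine list as a whole had 5 rises and 3 decreases in 18 genes.

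**Figure D3:**
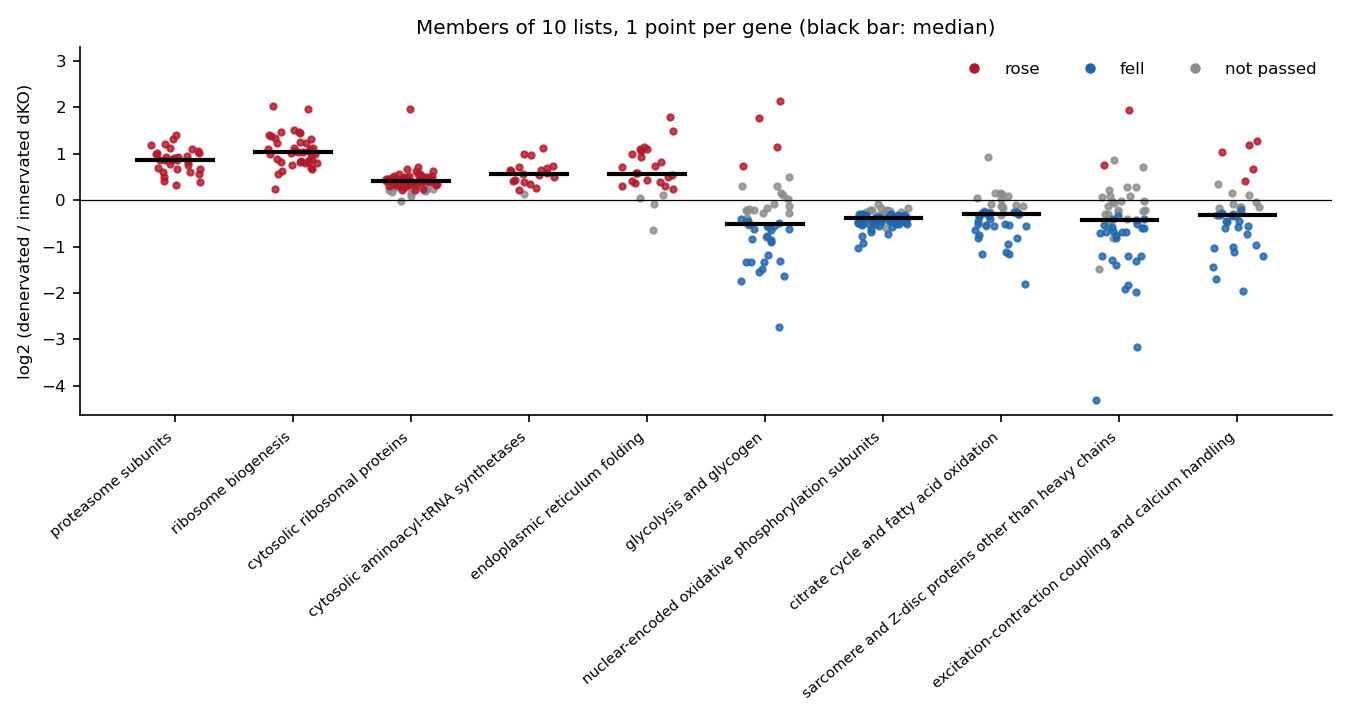
Points are the tested members of 10 lists, by the log2 ratio of denervated over innervated dKO muscle, coloured by whether they rose, fell or did not pass the test, with a black bar at each list's median. Proteasome and ribosome biogenesis genes all lie above 0, oxidative phosphorylation genes lie close together below 0, and sarcomere genes spread widest, with Kbtbd13 the lowest and Mybph the highest point.

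Of the protein synthesis lists, ribosome biogenesis rose throughout. All 40 tested ribosome biogenesis genes rose, with a median log2 ratio of 1.04. The nucleolar GTPase Gnl3 had 60.4, 69.9 and 65.3 CPM in denervated dKO muscle, against 18.1, 15.6 and 14.5 CPM in innervated dKO muscle (log2 2.02 ± 0.11, edgeR adjusted p = 2.9e-08), and the small nucleolar RNA-binding protein Nop58 rose by a log2 ratio of 1.97. Of 76 cytosolic ribosomal protein genes, 62 rose and none fell by the test, with a median of 0.41. Many of these genes have processed pseudogenes, so their counts are uncertain. Of 20 cytosolic aminoacyl-tRNA synthetases, 19 rose.

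Rpl3, a protein of the large ribosomal subunit, had 73.9, 93.9 and 92.6 CPM in denervated dKO muscle, against 21.7, 21.6 and 23.7 CPM in innervated dKO muscle (log2 1.96 ± 0.13, edgeR adjusted p = 1.07e-07), and its counts may be shared with pseudogenes. Its muscle paralogue Rpl3l, which was looked up after the values were seen, had 156, 157 and 128 CPM in denervated and 265, 355 and 356 CPM in innervated muscle and fell (log2 −1.15 ± 0.13, edgeR adjusted p = 1.07e-05). In every denervated library Rpl3l was nearer to Rpl3 in CPM than in any innervated library.

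Protein folding genes rose in the endoplasmic reticulum list and mostly rose or did not pass in the cytosolic one. Of 26 genes of protein folding in the endoplasmic reticulum, 22 rose and none fell by the test (median 0.56), including the transcription factor Xbp1 (log2 1.79) and the export protein Derl1 (log2 1.49). Ddit3, the pro-apoptotic factor CHOP, is not in this list and was counted with the serine, one-carbon and amino acid response below. It had 6.18, 6.95 and 5.32 CPM in denervated dKO muscle, against 15.8, 22.9 and 14.1 CPM in innervated dKO muscle. The gene fell with no overlap (log2 −1.51 ± 0.25, edgeR adjusted p = 0.000347). Of 29 cytosolic heat-shock protein genes, 15 rose and 4 fell. The small heat-shock protein Hspb8, which works in chaperone-assisted autophagy, had 2276, 2929.9 and 2544 CPM in denervated and 297, 325 and 303 CPM in innervated muscle, an 8.38-fold rise (edgeR adjusted p = 9.39e-08), and its relative Hspb6 fell (log2 −1.44).

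Of 34 genes of serine, one-carbon and amino acid response, 18 rose and 4 fell, with a median log2 ratio of 0.76. They included the translation inhibitor Eif4ebp1 (log2 2.09), the amino acid transporter Slc7a5 (log2 2.29) and Atf4, the transcription factor of this response (log2 0.88). The hormone Fgf21 had 1.20, 1.24 and 1.17 CPM in denervated and 0, 0.0298 and 0 CPM in innervated dKO muscle, where 1 of 3 libraries had any count.

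Of 27 p53 targets, 11 rose and 2 fell. Eda2r, a death receptor of the TNF receptor family, had 358, 368 and 292 CPM in denervated dKO muscle, against 21.0, 15.4 and 15.0 CPM in innervated dKO muscle (log2 4.31 ± 0.25, edgeR adjusted p = 4.75e-08), and the cell cycle inhibitor Cdkn1a rose (log2 2.77). Of 32 AP-1 and immediate early genes, 14 rose and 3 fell. Fosl1, an AP-1 subunit, had 397, 737 and 762 reads in denervated and 6, 0 and 4 reads in innervated dKO muscle (edgeR adjusted p = 2.75e-06), with part of its sequence shared with another locus. Atf3, Junb and Myc rose by log2 ratios of 3.62, 3.43 and 2.92, and the activity-regulated nuclear receptor Nr4a1 fell (log2 −2.34). The small GTPase Rrad had 248, 323 and 259 CPM in denervated and 3.48, 2.40 and 2.79 CPM in innervated muscle (log2 6.58 ± 0.37, edgeR adjusted p = 3.92e-08).

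Of 24 clock genes, 7 rose and 1 fell, with 10 and 6 under the replicate block and 4 and 1 without innervated dKO replicate 3. The clock activator Arntl had 58.8, 48.1 and 28.9 CPM in denervated dKO muscle, against 28.8, 11.9 and 13.1 CPM in innervated dKO muscle. Replicate 1 was the highest in both legs, and the lowest denervated library lay just above the highest innervated one. Its log2 ratio was 1.34 ± 0.40 (edgeR adjusted p = 0.0168), with 0.0650 to 0.0708 when denervated dKO replicate 1 or innervated dKO replicate 2 or 3 was left out. Clock and Cry2 rose (log2 0.89 and 0.94), and the repressor Bhlhe41 fell (log2 −1.95).

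Genes that handle H2A.Z itself rose or did not pass in dKO muscle. Of 23 tested genes of H2A.Z deposition and removal, 13 rose and none fell by the test, with a median log2 ratio of 0.27. The changes were small: the SRCAP complex subunit Vps72, a chaperone of H2A.Z, rose by 0.71 and the remodeller Ino80 by 0.68 on the log2 scale. Of 16 replacement histone genes, 1 rose, H3f3b, which codes for H3.3 (log2 1.17), and 1 fell, the centromeric histone Cenpa (log2 −1.11), with 4 and 3 under the replicate block. Of 36 chromatin remodellers and histone chaperones, 16 rose and 2 fell. Of 40 cell cycle and DNA replication genes, 16 rose and 3 fell, with 9 rises without denervated dKO replicate 3; the replication licensing factor Cdt1 rose (log2 3.22) and the mitotic kinase Aurka fell (log2 −1.11).

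Markers of the other cells of the muscle were followed as lists, since the tissue is mixed. Markers of fibroblasts, mural cells, endothelium and tendon leaned down, and blood cell markers mostly did not pass. Of 20 fibroblast markers, 13 fell and none rose by the test, with a median log2 ratio of −0.57 and a summed level of 4812 to 5426 CPM in denervated and 7040.4 to 10798 CPM in innervated dKO muscle. Without denervated dKO replicate 2 or innervated dKO replicate 3, the number that fell was 7. Collagen Col1a1 had 907, 902 and 833 CPM in denervated and 1189.9, 1710.2 and 3067 CPM in innervated dKO muscle, with innervated replicate 3 far above its group (log2 −1.18 ± 0.34, edgeR adjusted p = 0.0129, 0.0856 without that library).

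Of 27 collagens, 19 fell and 2 rose, Col25a1, a membrane collagen needed for motor innervation in mice (log2 2.03), and Col19a1 (log2 1.70); 10 fell when denervated replicate 2 or innervated replicate 3 was left out. Of 12 mural markers, 8 fell, with summed levels of 3029 to 3224 CPM in denervated and 3512 to 3833 CPM in innervated muscle. Of 15 endothelial markers, 7 fell, with 801 to 863 CPM in denervated and 978 to 1121 CPM in innervated muscle. Of 7 tendon markers, with summed levels of 268 to 309.9 CPM in denervated and 396 to 634 CPM in innervated muscle, 4 fell, while the tendon transcription factor Scx had 13.4, 16.5 and 23.0 CPM in denervated and 2.04, 3.14 and 3.87 CPM in innervated muscle and rose (edgeR adjusted p = 2.58e-06).

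The Schwann cells of the nerve ending and the cut nerve showed both directions, with 5 of 14 tested markers that rose and 7 that fell and summed levels of 58.9 to 69.6 CPM in denervated and 96.5 to 125 CPM in innervated dKO muscle. Prx, a protein of peripheral myelin, had 2.31, 1.54 and 2.06 CPM in denervated dKO muscle, against 6.74, 8.01 and 10.8 CPM in innervated dKO muscle, and fell with no overlap (log2 −2.11 ± 0.20, edgeR adjusted p = 3.43e-06), while Ngfr, the neurotrophin receptor of denervated Schwann cells, and the gap junction gene Gjb1 rose (log2 2.99 and 3.28). Of 13 satellite cell and myoblast markers, 4 rose and 1 fell, with 459 to 549.6 CPM in denervated and 247 to 255 CPM in innervated muscle. Cd82, a surface protein of these cells that fibres can also express, had 117, 127 and 129 CPM in denervated and 8.20, 7.78 and 7.54 CPM in innervated muscle (edgeR adjusted p = 9.83e-10), and Pax7, the transcription factor that defines satellite cells, did not pass (edgeR adjusted p = 0.99).

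Immune markers gave no common direction. Of 19 macrophage and monocyte markers, 2 rose and 1 fell, with summed levels of 225 to 282 CPM in denervated and 223 to 245 CPM in innervated dKO muscle; Cd68, a lysosomal protein, rose (log2 2.31). Of 10 neutrophil markers, 5 had enough counts and 1 rose. This was S100a8, with 28.9, 22.3 and 27.4 CPM in denervated and 0.165, 0.134 and 0.0861 CPM in innervated muscle (log2 7.63 ± 0.40, edgeR adjusted p = 2.08e-08). Its usual partner S100a9, looked up after the values were seen, had 0.275, 0.254 and 0.247 CPM in denervated and 0.105, 0.283 and 0.0861 CPM in innervated muscle and did not pass (edgeR adjusted p = 0.258). None of 5 tested lymphocyte markers passed. Of 26 chemokines, 7 rose and 2 fell (4 rises at a mean of 1 CPM or more), among those that rose Ccl2 and Ccl7 (log2 3.21 and 3.20), and of 28 interferon-induced genes 3 fell and none rose, with 8 decreases under the block. Of 8 adipocyte markers 1 fell, and of 6 red blood cell markers 1 fell, with 6 under the block. The part of other cells in the results above was not tested.

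**Figure D4:**
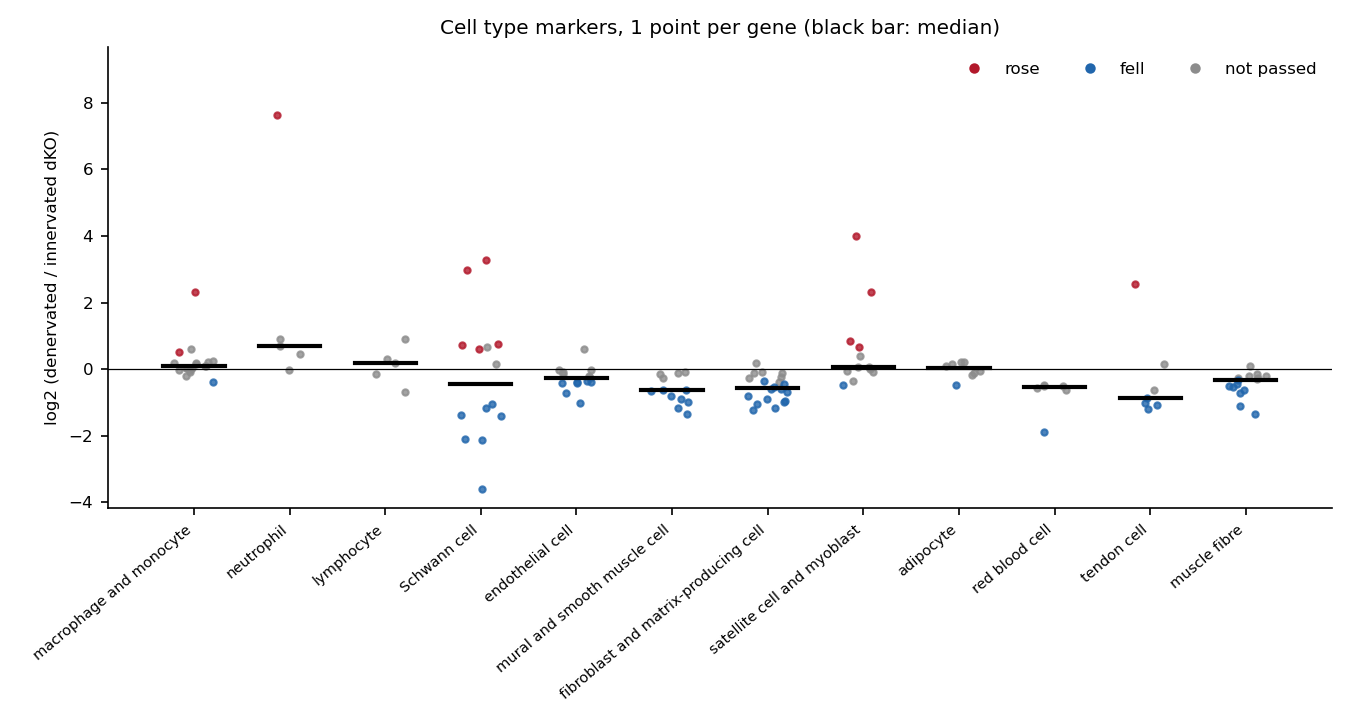
Points are the tested members of 12 cell marker lists, by the log2 ratio of denervated over innervated dKO muscle, coloured by call, with a black bar at the median of each list. Fibroblast, mural and tendon markers lie mostly below 0, Schwann cell markers lie on both sides, and S100a8 stands alone among the neutrophil markers.

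The responses of dKO and WT muscle were compared by the difference of their log2 ratios. No gene of 17201 passed the test of this difference in edgeR (0.0%), and 374 had an unadjusted p under 0.05 (2.17% of those tested). In limma-voom this number was 360 (2.09% of the same genes). In DESeq2, run on a larger set with low counts kept, it was 401 of 31057 (1.29%). Neither made a call. With the replicate block the number was 668 (3.88%), again without a call. These shares lie below the 0.05 expected when no gene differs, so the test was cautious. The missing calls do not show that the responses are equal. Over genes that averaged at least 1 CPM the median 95% interval of the difference reached 0.357 to each side on the log2 scale. Of 7233 genes called in dKO and 7576 called in WT, 6249 were called in both, which is 86.4% of the dKO calls and 82.5% of the WT calls, and 0 of these had opposite signs. The 984 genes called in dKO and not in WT are not shown to differ between the genotypes, and 0 of them passed the test of the difference. Of 1329 genes with at least 1 CPM that changed 2-fold or more in dKO, 1327 had the same sign in WT. Across genes of at least 1 CPM, the log2 ratios had a Pearson r of 0.965 and the slope of dKO on WT was 0.955, as a description, since genes are not independent replicates.

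For the genes that mark denervation the ratios of both genotypes and the unadjusted 95% interval of their difference (dKO minus WT, log2) were set side by side. The log2 ratio of Chrna1 was 3.47 in dKO and 3.34 in WT (interval −0.38 to 0.63). For Myog it was 5.91 in dKO and 5.38 in WT (interval 0.04 to 1.04, which lies above 0 before adjustment). Hdac4 had 2.95 in dKO and 2.93 in WT (interval −0.25 to 0.30). The ligase gene Fbxo32 had 3.26 in dKO and 3.52 in WT (interval −1.17 to 0.66). The coactivator gene Ppargc1a had −2.53 in dKO and −2.20 in WT (interval −0.67 to 0.02). None of these 5 differences passed the test. The list medians were 0.86 in dKO and 0.86 in WT for the proteasome, 1.04 in dKO and 1.00 in WT for ribosome biogenesis, and −0.39 in dKO and −0.44 in WT for oxidative phosphorylation. The smallest unadjusted p for the difference among named genes (0.00123) belonged to Fn3k, a kinase that repairs glycated proteins, which fell by log2 ratios of −2.74 in dKO and −1.99 in WT, a difference of −0.74 (95% interval −1.13 to −0.35, edgeR adjusted p = 1.0). The interferon-induced chemokine Cxcl10 had 2.59, 3.43 and 3.82 CPM in denervated dKO and 1.07, 0.149 and 0.172 CPM in innervated dKO muscle, a log2 ratio of 2.80 in dKO against 6.17 in WT. This difference of −3.37 had a 95% interval of −5.58 to −1.15 and did not pass either (edgeR adjusted p = 1.0).

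**Figure D5:**
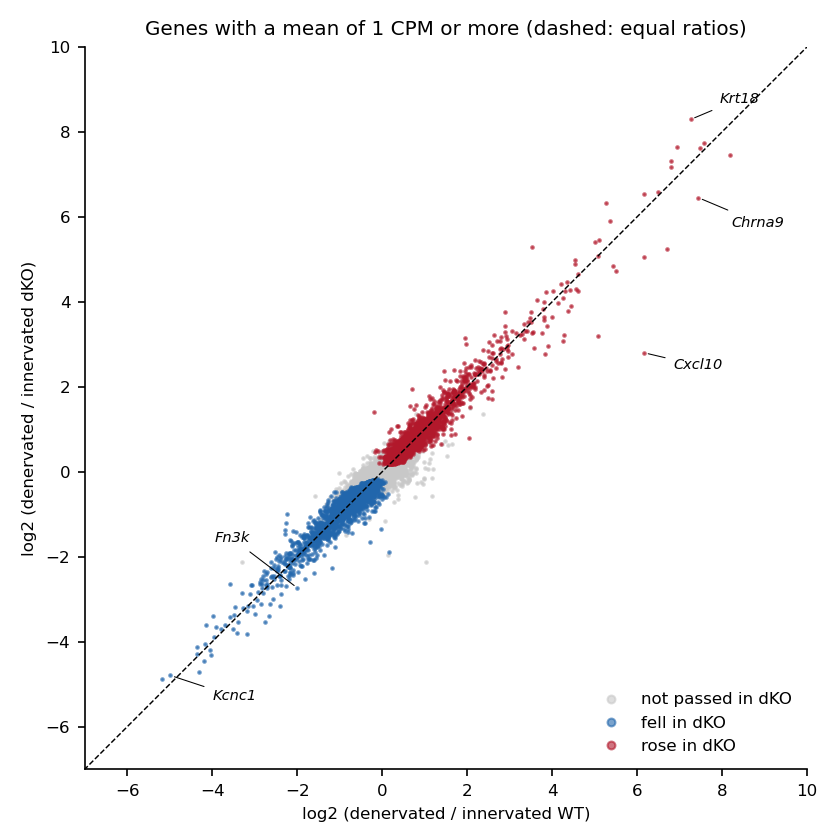
Each point is a gene that averaged at least 1 CPM, with the log2 ratio of denervated over innervated muscle in dKO on the vertical and in WT on the horizontal axis, and a dashed line of equality. The points follow the line (r of 0.965), with Krt18 and Chrna9 at its upper and Kcnc1 at its lower end and Cxcl10 and Fn3k below it.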

How the data were processed

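The 12 samples are of mouse tibialis anterior, 3 per group, with RNA measured in each, grouped and numbered by the labels; 6 dKO libraries make the comparison. The labels do not tie legs to animals, and p-values measure the spread between samples. Per the labels, libraries were stranded total RNA depleted of ribosomal RNA. Tools named by the submitters' processing notes, with no role or order, are HTSeq 0.6.1, Bowtie, TopHat2 2.0.14 and bcl2fastq 2.17.1.14, with the build mm9. The strand setting of counting, its filters and the annotation release are, in the sources used here, not stated.

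The deposited table holds raw counts per gene, used for all tests, and the authors' normalized signal, each library divided by 1 factor, and the same signal per kb, used for levels between genes. The authors' log2 fold changes and p-values were deposited beside them and were not used.

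Of 31057 genes, edgeR's filter kept 17201 with 99.975% of counts. After TMM scaling, edgeR 4.0.16 (R 4.3.3) fitted the 4 group means together, leaving 8 residual degrees of freedom, without a replicate block. The quasi-likelihood p was adjusted by Benjamini-Hochberg over the whole table, at 0.05. CPM use TMM-scaled totals. The script was tested on simulated data. A depth floor is 3 counts and covers counting error only. Lists are described by counts and medians, with no set test.

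The main fit did not pair the legs. Same-numbered libraries deviated together (r of 0.283, 0.508 and 0.197 in dKO and 0.459, 0.271 and 0.279 in WT), so the numbers of the labels were used to pair the legs in an alternative. Alternatives were the replicate block (4 residual degrees of freedom), DESeq2 size factors, DESeq2 1.42.0, limma-voom 3.58.1, other filters, only dKO libraries, each library left out and, chosen after seeing the data, 2 libraries with a divergent GC trend left out.

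The 51 lists, their members and the named genes were chosen with earlier results of these data known. The rule for names took the targeted genes, the 10 largest rises and decreases by ratio and by CPM, up to 4 called members per list, members whose call differs from most of their list, the 10 smallest p of the difference between genotypes and a set of 19 genes of denervation. Hdac9, Hdac5, Dok7, Myf6, Kcna7, Kcnn3, Clcn1, Atp1b1, Scn4a, Atf4, Fgf21, S100a9, Pax7, Slc2a4, Tpi1, Chrna7, Chrnb1, Esrra, Nr4a1, Psmb7 and Rpl3l lie outside it and were chosen after their values were seen. A few genes the rule points to are left out. Near-identical copies (98% identity over 50% of the transcript, BLAST 2.17.0) were found for 33 of 484 genes searched in GENCODE M21, a GRCm38 annotation that also gave strand overlaps. Promoters came from RefSeq (GRCm38.p6). For the counts, genes were matched by Ensembl gene ID and, where this gave no match, by symbol or synonym. The windows of single genes were taken by symbol.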

Additional observations from a re-analysis of the deposited data

How the results depend on the processing

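The number of genes called in the dKO response was 8186 with a replicate block (7150 of them shared with the 7233 called without it), 7233 with DESeq2 size factors, 7269 in DESeq2, 7092 in limma-voom, 6930 without a filter, 6605 at a mean of at least 1 CPM, 7061 in a fit of only the dKO libraries, 7996 in that fit with a replicate block, 6115 to 6681 when 1 dKO library was left out and 7062 without the 2 libraries with a divergent GC trend. A limit of 2-fold reduced it to 1965. The difference between the responses of dKO and WT called 0 genes under every alternative except without a filter on low counts, where it called 2; with the replicate block it called 0, and 668 had an unadjusted p under 0.05. The rule for names points to a pool of 485 genes. Not all of these are described in the text, and the genes chosen after their values were seen lie outside it. Of the pool, 290 genes were called and 246 of these were called under every alternative run, and no called gene changed sign. The block added 47 genes of the pool to the calls and took away 0. Lost calls of genes described in the text are given beside them, apart from the following. In the fit of only the dKO libraries, the calls on Rapsn and Sln were lost as well. Without the 2 libraries with a divergent GC trend, those on Chrng, Rapsn, Myh1 and Pvalb were lost as well. The median 95% interval of the difference between genotypes reached 0.357 to each side on the log2 scale, and for genes that were not called this interval, not the missing call, is the measurement. With 3 samples per group and legs not tied to animals by the labels, p-values cover the spread between these samples only.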
